A study of Homo sapiens with 20 samples.

Results

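Integrins and laminins are the receptors and the ligands by which a cell holds on to its basement membrane. All genes of the count table whose symbol is that of an integrin subunit or a laminin chain were taken, which gave 38 of 58676 genes. They were 26 integrin subunits (18 alpha and 8 beta) and 12 laminin chains (5 alpha, 4 beta and 3 gamma). The symbol pattern also met ITGB1BP1, ITGB1BP2 and ITGB3BP, which encode integrin-binding proteins, and ITGBL1, which encodes an integrin beta-like protein, and these were left out. The members were measured by RNA sequencing in a wild-type immortalized human pericyte line sold by Celther, grown in DMEM with 10% fetal bovine serum. All 4 groups had the same line and medium, and each held 5 libraries. One was untreated control, one received recombinant human eNAMPT at 500 ng/mL, one recombinant human PDGF-BB at 20 ng/mL, and one both agents, for 4 h. eNAMPT is the secreted form of nicotinamide phosphoribosyltransferase, whereas PDGF-BB signals through PDGFRB, a receptor that marks pericytes. How the line was immortalized, and whether serum was present during the treatment, is not given in the sources used here. The labels call the replicates biological but name no separate donor or day, so p-values measure the spread between these 20 libraries.

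An integrin is a pair of 1 alpha and 1 beta subunit that spans the membrane. Outside, the pair binds matrix proteins such as collagen, fibronectin or laminin; inside, adaptor proteins such as talin and vinculin tie it to actin. The beta subunit encoded by ITGB1 can pair with most alpha subunits, so the alpha subunit largely sets which ligand is bound. A laminin is a trimer of 1 alpha, 1 beta and 1 gamma chain and is a main component of basement membranes. Pericytes share the basement membrane of capillaries with the endothelium, and both cell types contribute to it.

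Of the 38 members, ITGA5 and ITGA2 were the genes whose transcripts passed the test, and in PDGF-BB comparisons alone. Their promoter regions are shown first, with ITGB1, their common beta partner, and ITGA1, the closest comparison to ITGA2 by position and ligand. ITGA1 and ITGA2 lie side by side in the same orientation on chromosome 5, with 30.1 kb between the end of ITGA1 and the start of ITGA2. Each line gives 250 bases before the RefSeq transcription start and 10 bases after it, read 5′ to 3′ on the gene's strand (RefSeq, GRCh38.p14). The windows are chr12:54419257-54419516 (minus strand), chr5:52989102-52989361 (plus), chr10:32958221-32958480 (minus, the more upstream of its 2 RefSeq starts) and chr5:52787666-52787925 (plus). PELO, a gene within the ITGA1 locus, has the same RefSeq window as ITGA1. Capitals mark GGGCGG or its reverse complement CCGCCC (the SP1 motif), TGANTCA (AP-1) and the NF-kB site.
ITGA5: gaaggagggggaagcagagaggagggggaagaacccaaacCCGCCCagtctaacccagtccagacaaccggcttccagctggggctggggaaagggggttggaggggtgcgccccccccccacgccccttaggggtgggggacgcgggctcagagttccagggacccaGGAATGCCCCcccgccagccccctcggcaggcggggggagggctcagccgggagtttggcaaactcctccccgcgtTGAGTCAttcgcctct
ITGA2: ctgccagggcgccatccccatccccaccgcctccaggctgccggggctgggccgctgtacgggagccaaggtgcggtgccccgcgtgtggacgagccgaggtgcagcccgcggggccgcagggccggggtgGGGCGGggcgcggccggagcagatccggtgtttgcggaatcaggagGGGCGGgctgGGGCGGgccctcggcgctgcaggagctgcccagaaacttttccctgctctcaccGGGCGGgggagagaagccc
ITGB1: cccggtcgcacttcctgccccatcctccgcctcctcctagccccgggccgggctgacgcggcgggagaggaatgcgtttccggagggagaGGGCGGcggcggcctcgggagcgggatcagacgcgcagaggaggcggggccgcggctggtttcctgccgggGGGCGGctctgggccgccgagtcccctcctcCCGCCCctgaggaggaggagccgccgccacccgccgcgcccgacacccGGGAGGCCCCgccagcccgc
ITGA1: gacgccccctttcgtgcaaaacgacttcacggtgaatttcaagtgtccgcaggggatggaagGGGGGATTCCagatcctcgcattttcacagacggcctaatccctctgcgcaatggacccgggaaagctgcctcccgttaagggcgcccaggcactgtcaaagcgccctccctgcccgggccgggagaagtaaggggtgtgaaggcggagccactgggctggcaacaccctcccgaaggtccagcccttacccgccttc

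In the ITGA5 window the script found the SP1 motif once, the NF-kB site once and the AP-1 motif once, the last starting 6 bases before the transcription start. The ITGA2 window held the SP1 motif 4 times and neither of the other marked motifs. The ITGB1 window held the SP1 motif 3 times and the NF-kB site once, and the ITGA1 window held the NF-kB site once. Both strands were searched over the 260 bases. RefSeq windows were matched for 26 of the 38 members. The SP1 motif was in 13 of those 26 and in 42.8% of all 27305 promoters of that length. TGANTCA was in 2 of 26 (7.69%; ITGA5 and LAMA3) against 6.94%, and the NF-kB site in 7 of 26 (26.9%) against 9.77%. The EGR motif GCGNGGGCG was in 2 of 26 (7.69%) against 8.44%. The motifs can overlap one another. These are matches of letters and were not tested as binding sites.

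Library totals ran from 2894878 to 4011066 gene counts, with a median of 3269233, and spike-in RNA took 1.57% to 2.91% of counts. Levels are counts per 1e6 (CPM) after TMM scaling, a per-library normalization. To set one gene against another, CPM was divided by the kilobases of exon in the annotation (CPM per kb), where the exons of all isoforms are merged. Whether reads cover whole transcripts is not given in the sources used here, so the larger moves in rank without that division are given. The labelled cell type was checked against its markers. Of 10 pericyte and mural markers, 9 had a mean of at least 1 CPM, with DES at 0.561 CPM as the exception. PDGFRB at 130.1 CPM and CSPG4 at 63.0 CPM were highest, while NOTCH3, ABCC9 and KCNJ8 were at 8.16, 6.37 and 4.08 CPM. All 6 fibroblast markers were also above 1 CPM. COL1A1 stood at 3299, THY1 at 106, PDGFRA at 92.5, FAP at 30.7, DCN at 5.88 and LUM at 4.56 CPM. Of 7 leukocyte markers, 3 had at least 1 CPM (CD14 17.7, CD68 3.85 and CSF1R 2.88 CPM), while PTPRC, the pan-leukocyte gene, had 0.0729 CPM and LYZ no count. Of 7 endothelial markers, 2 had at least 1 CPM (TEK 2.52 and PECAM1 1.73 CPM), and CDH5 had 0.0977 CPM. Of 4 platelet markers none reached 1 CPM, with 12 counts in all of PF4 and none of PPBP, GP9 and GP1BA.

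The line expressed a set of integrins built around ITGB1. ITGB1 stood at 60.7 ± 4.81 CPM per kb (SD, n = 20), the highest of all 38 members, and made up 77.8% ± 2.45 (SD, n = 5) of the per-kb signal of the 8 beta subunits in control. ITGB5, which pairs with ITGAV and binds vitronectin, was the next beta subunit, with 15.2 ± 1.79 CPM per kb and 20.3% ± 2.30 of the beta signal. ITGB3, ITGB8 and ITGB4 were below 1 CPM per kb, at 0.656, 0.474 and 0.326. ITGB1 read 353, 304, 378, 357 and 432 CPM in control replicates 1 to 5 and 334, 349.7, 364, 354 and 397 CPM with eNAMPT. In ITGB1, the PDGF-BB libraries read 383, 362, 330.1, 359 and 419 CPM and those with both agents 349, 360.2, 361, 366 and 382 CPM. The lowest and the highest ITGB1 value were both in control libraries, and the other groups lay within that range. ITGB5 read 98.8, 99.5, 92.6, 113 and 102 CPM in control replicates 1 to 5 and 109, 95.8, 96.2, 96.9 and 78.7 CPM with eNAMPT. In ITGB5, the PDGF-BB libraries read 94.2, 101, 112, 110.2 and 83.1 CPM and those with both agents 106, 79.6, 114, 98.4 and 75.9 CPM. The ITGB5 groups overlapped throughout.

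Among alpha subunits the laminin receptor ITGA3 was highest, at 16.9 ± 1.67 CPM per kb, followed by the fibronectin receptor ITGA5 at 13.0 ± 2.22 and the collagen receptor ITGA2 at 11.6 ± 2.16 (SD, n = 20). ITGA6, another laminin receptor subunit, stood at 8.16 ± 1.36 and ITGAV, which binds RGD ligands such as vitronectin, at 6.59 ± 0.817 CPM per kb. ITGAE was at 5.99 ± 0.869, ITGA11 at 4.82 ± 0.631, ITGA1 at 4.41 ± 0.543 and ITGA7 at 3.60 ± 0.981. ITGA4, ITGA8 and ITGA10 were lower, at 1.86, 1.32 and 0.327 CPM per kb. The mean ± SD ranges of neighbours in this order overlapped all the way from ITGA5 to ITGA7, and again between ITGA4 and ITGA8, so those orders are not separated. ITGA5 and ITGA2 differed between groups, so their order also depends on the group. Per kb, ITGA5 stood at 11.1 ± 1.04 in control and 15.6 ± 1.19 with both agents (SD, n = 5), where its range met that of ITGA3 (16.6 ± 1.03). ITGA2 stood at 9.97 ± 1.76 in control, where its range met that of ITGA6 (8.48 ± 0.967), and at 13.2 ± 0.771 with PDGF-BB, where it did not (ITGA6 7.74 ± 1.12). By CPM without the exon length, ITGA1 moved from rank 14 to rank 9 of the 38 members, its merged exons being 18.6 kb. LAMB3 moved from 17 to 21, LAMA1 from 22 to 18 and LAMB2 from 10 to 13, ITGB5 from 5 to 7, ITGA6 from 9 to 11 and ITGAE from 12 to 14. The highest 4 members kept their ranks. ITGA3 read 178, 176, 182, 127 and 177 CPM in control replicates 1 to 5 and 145, 162, 161, 152 and 147 CPM with eNAMPT. In ITGA3, the PDGF-BB libraries read 174, 153, 183, 188 and 189 CPM and those with both agents 157, 158, 178, 152 and 169 CPM. The control library of replicate 4 had the lowest ITGA3 value of all 20.

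The collagen receptors of the line were thus ITGA2, ITGA11 and ITGA1, each of which pairs with ITGB1. ITGA2 was the highest of them per kb of exon in the mean over all libraries, while ITGA11 and ITGA1 were not separated. This order depends on the division by exon length. In CPM, ITGA1 (81.3 ± 7.71) and ITGA2 (78.8 ± 13.9) overlapped in control (SD, n = 5). Over all libraries ITGA1 had a mean of 81.9 CPM and ITGA11 of 52.4 CPM. The exons of ITGA1 overlap those of PELO on the same strand (1646 counts against 5397 for ITGA1 over all libraries). The sources used here do not state the strand setting of the counting, so reads of ITGA7 and BLOC1S1, LAMA5 and ADRM1, and LAMB1 and DLD, which overlap on opposite strands, may also be shared or dropped. For LAMA5 the overlapping gene held more counts (10724 against 925).

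Integrins of blood cells were at or near 0 counts. Over the 20 libraries ITGAD had 0 counts of 66386104, which allows up to 0.0452 CPM (a floor of 3 counts, for counting error only). ITGAL had 2 counts in total, ITGAM 6, ITGB2 16, ITGB7 22, ITGAX 23 and the platelet subunit ITGA2B 42. ITGA9 and ITGB6 had 7 counts each. ITGAE is known as the partner of ITGB7 on lymphocytes of epithelia, and it stood at 5.99 CPM per kb beside 0.0743 CPM per kb of ITGB7. LAMA3, LAMB4 and LAMC3 had 70, 6 and 20 counts. These 12 genes (9 integrins and 3 laminins) fell below the filter on low counts. The other 26 members, 17 integrins and 9 laminins, were tested.

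Among laminin chains, the set LAMA4, LAMB1 and LAMC1 was highest in its class. LAMC1 stood at 28.97 ± 2.47 CPM per kb (SD, n = 20), LAMB1 at 22.3 ± 1.57 and LAMA4 at 13.4 ± 1.78. LAMC1 made up 97.8% ± 0.940 (SD, n = 5) of the gamma signal in control, LAMA4 82.8% ± 2.08 of the alpha signal and LAMB1 72.3% ± 4.24 of the beta signal. LAMB2, the other vascular beta chain, had 22.2% ± 3.91. LAMA5, LAMA2 and LAMA1 were each under 1 CPM per kb, at 0.973, 0.913 and 0.835, and could not be ordered within their SDs. LAMB3, a chain of the laminin of epithelial anchorage, stood at 1.75 CPM per kb.

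LAMC1 read 275, 245, 265, 217 and 242 CPM in control replicates 1 to 5 and 259, 269.5, 231, 209.8 and 234 CPM with eNAMPT. In LAMC1, the PDGF-BB libraries read 255, 259.6, 241, 226 and 233 CPM and those with both agents 253, 277, 243, 203 and 234 CPM. The groups overlapped, and LAMC1 was lowest in the both-agents library of replicate 4. LAMB1 read 182, 173, 179, 187 and 197 CPM in control replicates 1 to 5 and 199.98, 169, 179, 167 and 179 CPM with eNAMPT. In LAMB1, the PDGF-BB libraries read 160.3, 192, 183, 193 and 170.3 CPM and those with both agents 173, 193, 195, 199.9 and 160.0 CPM. All LAMB1 values lay between 160.04 and 199.98 CPM. LAMA4 read 167, 187, 163, 129 and 171 CPM in control replicates 1 to 5 and 166, 174, 157, 142 and 136 CPM with eNAMPT. In LAMA4, the PDGF-BB libraries read 174, 181, 145, 109 and 133 CPM and those with both agents 152, 183, 159, 138 and 145 CPM. In LAMA4 the lowest library was PDGF-BB replicate 4, and every group overlapped every other.

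**Figure D1:**
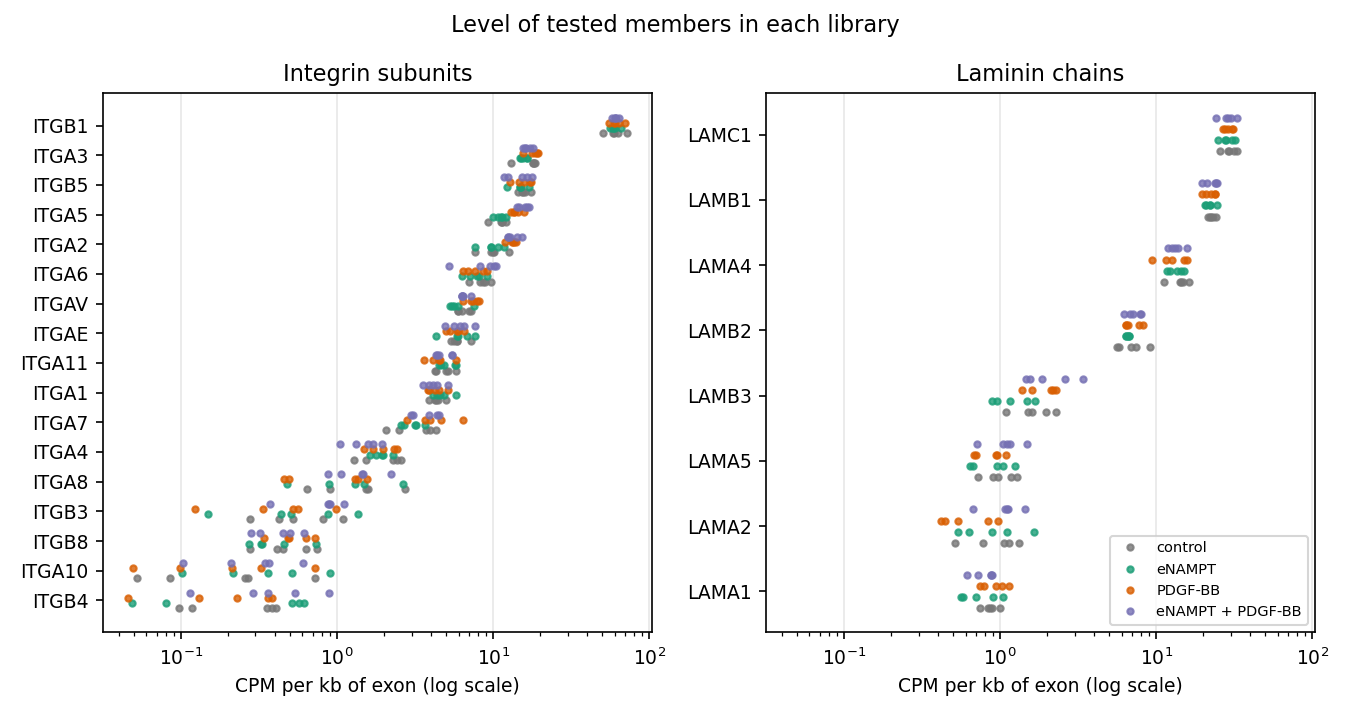
CPM per kb of exon (log axis) of 25 tested members, 1 point for each of the 20 libraries, coloured by group; integrin subunits on the left and laminin chains on the right, each ordered by mean. ITGB1 (mean 60.7) and LAMC1 (mean 28.97) lead their families, and the PDGF-BB and both-agents points of ITGA5 and ITGA2 sit to the right of most control and eNAMPT points.

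Transcripts of the fibronectin receptor subunit ITGA5 and the collagen receptor subunit ITGA2 rose with PDGF-BB, and no other tested member passed. ITGA5 pairs with ITGB1 alone, and the pair is the classical receptor for fibronectin. ITGA5 read 91.5, 86.6, 84.7, 70.5 and 85.6 CPM in control replicates 1 to 5 and 86.7, 81.5, 92.1, 84.5 and 75.4 CPM with eNAMPT. In ITGA5, the PDGF-BB libraries read 119, 103, 109, 97.8 and 102 CPM and those with both agents 122, 107, 125, 111 and 128 CPM. All 10 libraries with PDGF-BB (lowest 97.8 CPM) lay above all 10 without it (highest 92.1 CPM). Of the 12111 genes tested, 51 (0.421%) were separated in this way upwards and 7 (0.0578%) downwards, and ITGA5 was the one member among them. ITGA5 (ENSG00000161638) lies on chromosome 12 from 54395261 to 54419460 on the minus strand (GENCODE 29, GRCh38).

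ITGA2 (ENSG00000164171, chromosome 5, 52989326 to 53094779, plus strand) also pairs with ITGB1 and binds collagens, and laminins more weakly. ITGA2 read 78.9, 76.2, 99.2, 60.1 and 79.8 CPM in control replicates 1 to 5 and 76.0, 93.2, 76.3, 60.9 and 84.6 CPM with eNAMPT. In ITGA2, the PDGF-BB libraries read 107, 104, 106, 94.1 and 110.1 CPM and those with both agents 101, 122, 98.2, 97.9 and 113 CPM. The PDGF-BB group and the group with both agents lay above every eNAMPT library. They overlapped control, whose replicate 3 (99.2 CPM) exceeded PDGF-BB replicate 4 (94.1 CPM) and 2 libraries with both agents.

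With PDGF-BB alone, the ITGA5 mean was 106 ± 8.27 CPM against 83.8 ± 7.86 CPM in control (SD, n = 5), a log2 fold change of 0.35 (SE 0.09, 95% interval 0.17 to 0.53, adjusted p 0.0346 by edgeR's quasi-likelihood test). ITGA2 went from 78.8 ± 13.9 to 104 ± 6.10 CPM, a log2 fold change of 0.41 (SE 0.11, interval 0.19 to 0.62, adjusted p 0.0402). For both genes 5 of 5 PDGF-BB libraries exceeded the control mean. In this comparison 2 of 26 tested members passed, both higher, while 147 of the 12111 genes passed (1.21%), 127 of them higher (1.05%). The median log2 fold change was -0.01 over the 26 members and -0.01 over all genes. These calls were close to the threshold in this fit, which had no term for the replicate number. Leaving out any 1 of the 10 libraries ended the ITGA5 call in 7 of 10 fits and the ITGA2 call in 8 of 10, with log2 fold changes of 0.29 to 0.38 and 0.32 to 0.50. The highest adjusted p, 0.168 for ITGA5 and 0.205 for ITGA2, came without control replicate 4.

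With both agents, ITGA5 reached 118 ± 9.00 CPM, a log2 fold change of 0.50 against control (SE 0.09, edgeR adjusted p 0.000325) and of 0.49 against eNAMPT alone (SE 0.09, adjusted p 0.000487). ITGA2 reached 106 ± 10.5 CPM, a log2 fold change of 0.44 against control (SE 0.11, adjusted p 0.0154) and of 0.45 against eNAMPT (SE 0.11, adjusted p 0.0149). In each of these comparisons the same 2 of 26 members passed, against 1.98% of all genes versus control (1.63% higher) and 1.53% versus eNAMPT (1.18% higher). Both comparisons share the libraries with both agents. The ITGA5 calls held in all 10 fits with 1 library left out. The ITGA2 call against control ended without control replicate 4 (adjusted p 0.1004) or the both-agents replicate 2 (0.0625), and the call against eNAMPT without eNAMPT replicate 4 (0.0915) or the both-agents replicate 2 (0.0624).

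Taking the 10 libraries with PDGF-BB against the 10 without, the average log2 fold change was 0.42 for ITGA5 (SE 0.06, interval 0.29 to 0.55, edgeR adjusted p 8.68e-06) and 0.43 for ITGA2 (SE 0.08, interval 0.27 to 0.58, adjusted p 0.000146). Again 2 of 26 members passed, beside 3.96% of all genes (2.96% higher, 1.01% lower). Both calls held in all 20 fits that left out 1 library. They did not hold with libraries scaled by spike-in counts in place of TMM. There the average was 0.37 for ITGA5 (adjusted p 0.307) and 0.37 for ITGA2 (0.295), and 0 members passed in any PDGF-BB comparison. The authors' deposited table, which gives control against treated so that a negative value is higher with treatment, lists ITGA5 at -0.31 (adjusted p 0.0105) and ITGA2 at -0.33 (0.0296) for PDGF-BB. In the authors' deposited table for both agents against control, ITGA5 is at -0.44 (5.17e-06) and ITGA2 at -0.36 (0.0115).

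**Figure D2:**
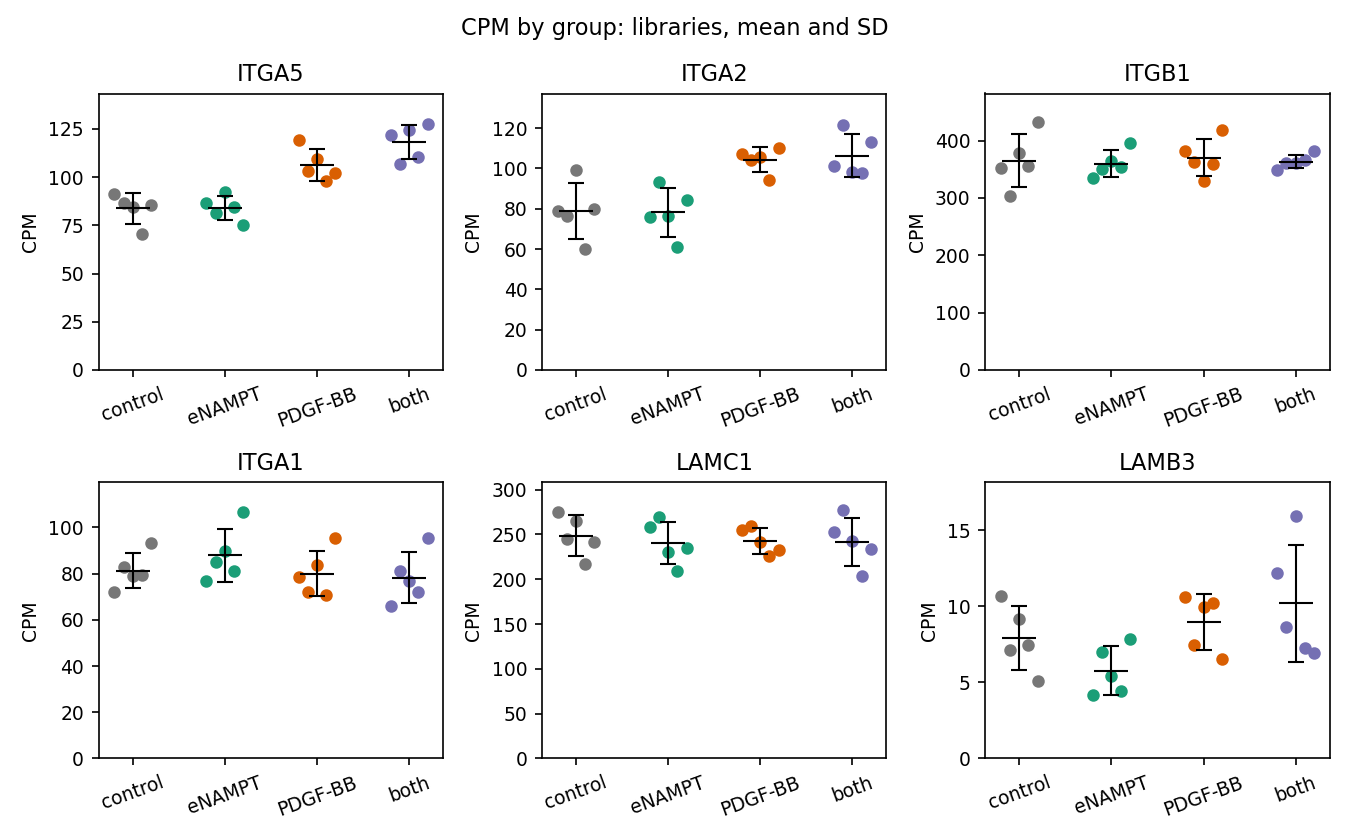
CPM in each of the 5 libraries of each group (points, replicate 1 to 5 from left to right), with the group mean and SD (bars), for 6 members. In ITGA5 every PDGF-BB and both-agents library is at 97.8 CPM or more and every other library at 92.1 CPM or less, while the groups overlap in ITGB1, ITGA1, LAMC1 and LAMB3.

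The shared beta partner did not pass. ITGB1 had an average log2 fold change with PDGF-BB of 0.02 (SE 0.05, 95% interval -0.09 to 0.13, adjusted p 0.922). The other collagen receptor subunits ITGA1 and ITGA11 had average changes of -0.09 each, with intervals of -0.24 to 0.06 and -0.27 to 0.08. ITGA3 and ITGA6, the laminin receptor subunits, were at 0.08 (-0.04 to 0.20) and 0.02 (-0.18 to 0.21). ITGB5 was at -0.01 (-0.16 to 0.14). None of these 6 genes passed. ITGAV had 0.16 (interval 0.01 to 0.32, adjusted p 0.303), and ITGA7, a laminin receptor subunit of muscle and mural cells, 0.34 (0.06 to 0.62, adjusted p 0.197).

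Among the laminin chains of low level, LAMB3 stood at 7.92 ± 2.13 CPM without any agent and 5.77 ± 1.595 CPM with eNAMPT (SD, n = 5), against 8.97 ± 1.85 CPM with PDGF-BB and 10.2 ± 3.84 CPM with both. Its average was 0.49 (interval 0.09 to 0.89, adjusted p 0.184).

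The abundant laminin chains had narrow intervals around 0. The average log2 fold change with PDGF-BB was -0.01 for LAMC1 (interval -0.13 to 0.10), 0.01 for LAMB1 (-0.10 to 0.12), -0.07 for LAMA4 (-0.22 to 0.09) and 0.08 for LAMB2 (-0.09 to 0.25). No laminin chain passed in any of the 8 comparisons. At an unadjusted p under 0.05, 2 of 9 laminins and 4 of 17 integrins stood out for the average PDGF-BB effect, among 1834 of all 12111 genes. DESeq2 also called 2 members, as did the authors' deposited table for each comparison of a PDGF-BB group with a group without it.

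**Figure D3:**
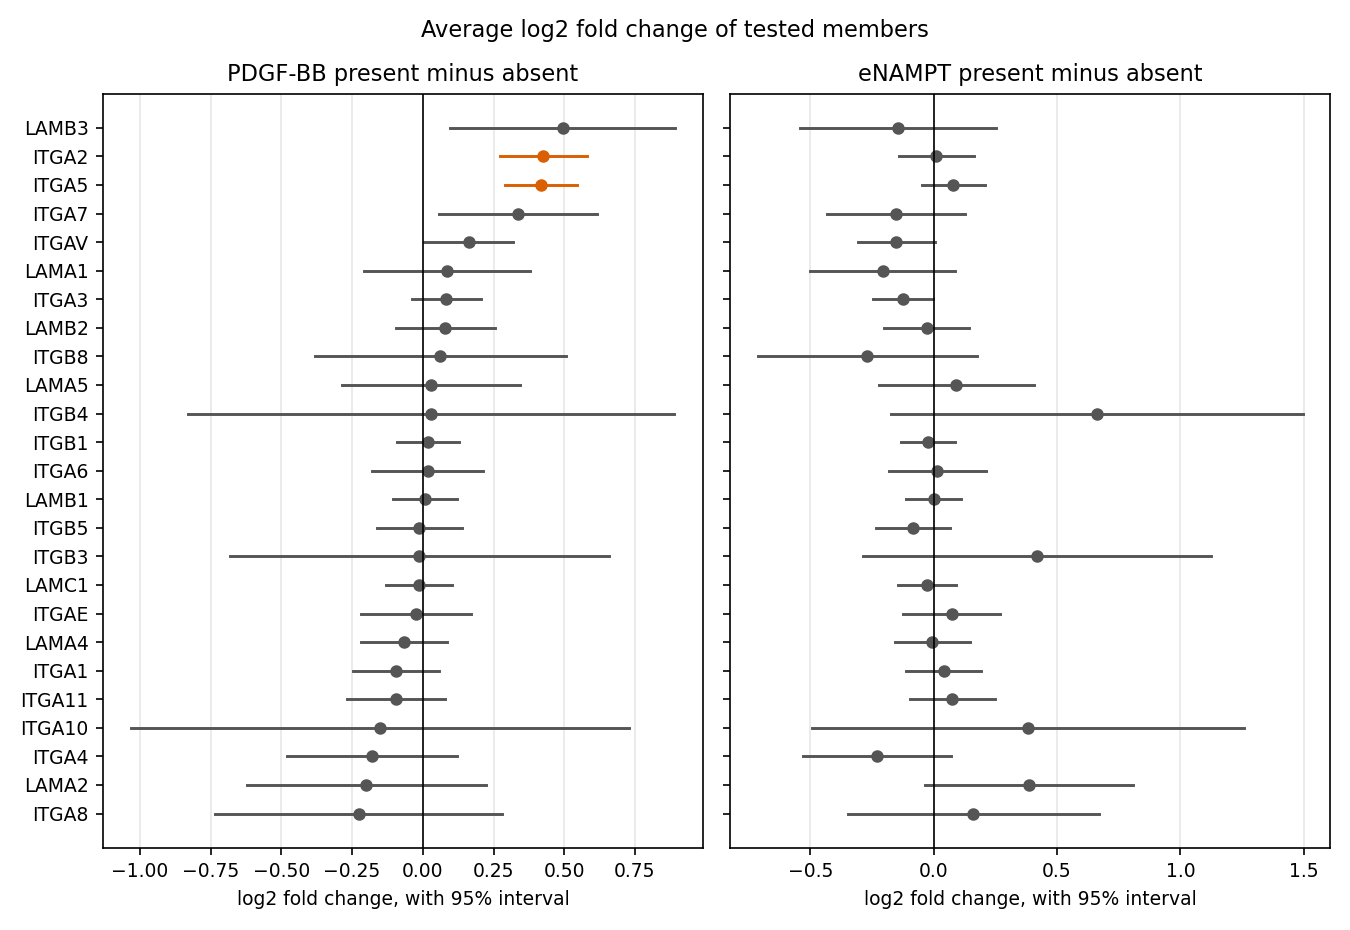
Average log2 fold change (point) with its 95% interval (line) of 25 tested members for PDGF-BB present against absent (left) and eNAMPT present against absent (right), 10 libraries against 10, ordered by the PDGF-BB value. Orange marks the members with an adjusted p under 0.05, ITGA5 (0.42) and ITGA2 (0.43) on the left, and none on the right.

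eNAMPT moved no integrin or laminin past the threshold. Against control 0 of 26 members passed by edgeR and 0 by DESeq2, with 0 at an unadjusted p under 0.05, while 9 of 12111 genes passed (0.0743%), all higher. ITGA5 had a log2 fold change of 0.01 (95% interval -0.18 to 0.19) and ITGA2 of -0.01 (-0.23 to 0.21). ITGB1 was at -0.02 (-0.17 to 0.13), LAMC1 at -0.05 (-0.21 to 0.12) and LAMA4 at -0.08 (-0.29 to 0.14). The smallest unadjusted p were those of LAMB3 (0.119), with -0.46, and ITGA3 (0.143), with -0.13. All 5 eNAMPT libraries lay below the control mean in both of these genes, and neither passed (adjusted p 1.00). LAMB3 rested on 14 to 49 counts per library.

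Adding eNAMPT to PDGF-BB gave 0 of 26 members by edgeR and by DESeq2, with 1 at an unadjusted p under 0.05, beside 7 genes in all (0.0578%). That member was LAMA2, the alpha chain best known from muscle, at 0.76 (SE 0.30, interval 0.16 to 1.37, unadjusted p 0.0144, adjusted p 1.00). Its means were 6.63 ± 2.55 CPM with PDGF-BB and 11.2 ± 2.82 CPM with both, beside 9.98 ± 3.28 in control (SD, n = 5). ITGA5 was at 0.15 (interval -0.03 to 0.33, adjusted p 1.00), and 5 of 5 libraries with both agents exceeded the PDGF-BB mean. ITGA2 was at 0.03 (-0.18 to 0.24). Averaged over the presence and absence of PDGF-BB, the eNAMPT effect passed in 0 of 26 members by edgeR and by DESeq2, against 19 genes in all (0.157%). There ITGA3 was at -0.13 (interval -0.25 to -0.00339, unadjusted p 0.0442, adjusted p 1.00), the 1 member under an unadjusted 0.05.

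The interaction asks whether the eNAMPT effect differed with PDGF-BB present. By edgeR 0 of 26 members and 0 of 12111 genes passed (0.0%), with 0 and 406 at an unadjusted p under 0.05, and DESeq2 called 0 members. The interaction was 0.14 for ITGA5 (95% interval -0.11 to 0.40) and 0.04 for ITGA2 (-0.27 to 0.34).

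Ratios between members of the same library do not depend on the scaling of libraries. They use the same counts as the tests above and were chosen after the values were seen, so they are given as descriptions. ITGA5 over ITGB1, in CPM, was 0.233 ± 0.0383 in control and 0.235 ± 0.0271 with eNAMPT (SD, n = 5). It was 0.289 ± 0.0338 with PDGF-BB and 0.326 ± 0.0244 with both, and its ranges overlapped (0.190 to 0.285 with PDGF-BB absent, 0.244 to 0.349 with it present). ITGA2 over ITGB1 was 0.218 ± 0.0406, 0.218 ± 0.0341, 0.283 ± 0.0238 and 0.293 ± 0.0277 in the same order. With PDGF-BB absent its 10 ratios ran from 0.169 to 0.267 and with PDGF-BB present from 0.262 to 0.338, so these ranges also overlapped. ITGA2 over its chromosomal neighbour ITGA1 was 0.977 ± 0.198 in control and 0.896 ± 0.145 with eNAMPT, and 1.31 ± 0.109 with PDGF-BB and 1.37 ± 0.146 with both. On average the ITGA2 to ITGA1 ratio was 1.45-fold higher with PDGF-BB. ITGA5 over ITGAV changed less, by 1.19-fold. It was 1.58 ± 0.134 in control and 1.75 ± 0.335 with eNAMPT, close to 1.77 ± 0.310 with PDGF-BB, and 2.22 ± 0.272 with both. Its ranges overlapped widely, from 1.22 to 2.13 without PDGF-BB and from 1.51 to 2.47 with it. Since CPM are not divided by length, only the change of a ratio across groups is read. ITGA5 over ITGA2 had overlapping groups, from 1.02 ± 0.0674 with PDGF-BB to 1.12 ± 0.147 with both. As a share of the per-kb signal of the 18 alpha subunits, ITGA5 was 14.6% ± 0.452 in control and 15.2% ± 1.22 with eNAMPT, against 17.0% ± 1.16 with PDGF-BB and 18.7% ± 1.055 with both. ITGA2 was 13.1% ± 1.53, 13.5% ± 1.72, 15.9% ± 0.916 and 16.1% ± 1.45.

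**Figure D4:**
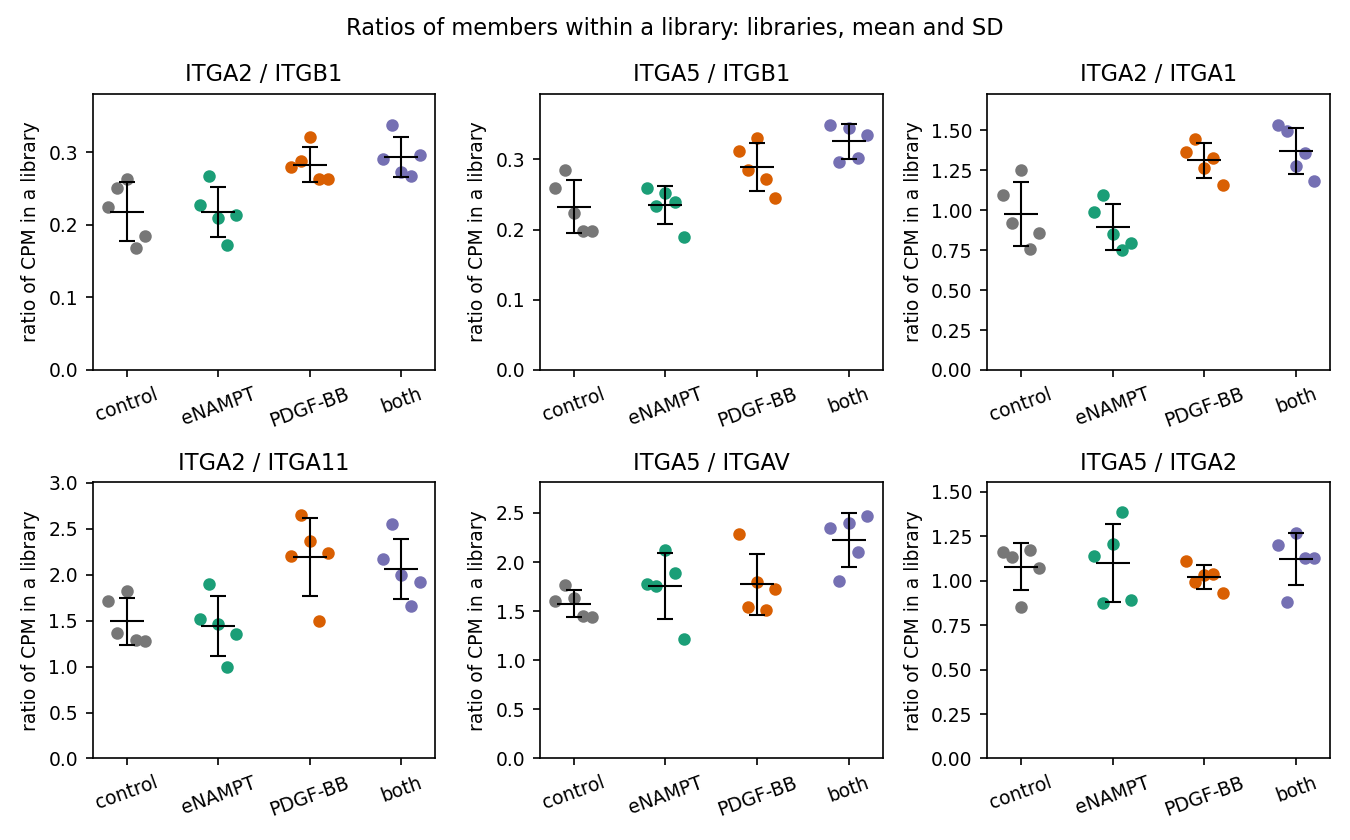
Ratio of CPM of 6 pairs of members within each library, by group (points, 5 libraries each), with mean and SD (bars). The ratios of ITGA2 and ITGA5 to ITGB1 have higher means in the PDGF-BB and both-agents groups, with ranges that overlap those of the other groups, and the ratio of ITGA5 to ITGA2 overlaps throughout.

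The genes that work with integrins were read from lists assembled for this purpose, with earlier results of these data known. The counts below are therefore descriptions, and the lists were not tested as sets. Of 41 tested adaptor and focal adhesion genes (44 listed), 5 rose and 0 fell for the average PDGF-BB effect, where 3.96% of all genes passed (2.96% higher and 1.01% lower), with a list median of 0.04 beside -0.01 over all genes. VCL, or vinculin, which links talin to actin, stood at 199.8 ± 20.02 CPM in control, 238 ± 8.16 with PDGF-BB and 245 ± 15.7 with both (SD, n = 5), an average log2 fold change of 0.26 (adjusted p 0.00341). The tensin TNS1 rose by 0.36 (adjusted p 0.00533) and the zyxin gene ZYX by 0.23 (0.0127). LIMS1, a partner of integrin-linked kinase, rose by 0.21 (adjusted p 0.0274). With PDGF-BB alone against control 0 of the 41 passed by edgeR, with 10 at an unadjusted p under 0.05. Of all 12111 genes, 147 passed there (1.21%) and 1168 had an unadjusted p under 0.05. With both agents against control TNS1 and VCL passed, beside 1.98% of all genes.

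Of 24 tested integrin ligands other than laminins (40 listed), 4 rose with PDGF-BB and 0 fell, beside 2.96% and 1.01% of all genes, with a median of 0.04. TNC, or tenascin C, went from 100.3 ± 11.9 CPM in control to 145 ± 23.2 with PDGF-BB and 152 ± 7.28 with both, an average log2 fold change of 0.54 (adjusted p 5.53e-07). THBS1, or thrombospondin 1, went from 413 ± 70.5 to 540.1 ± 67.5 and 537 ± 47.1 CPM, an average of 0.40 (adjusted p 6.3e-05). VCAM1 and ICAM1, the ligands of leukocyte integrins, had average PDGF-BB effects of 0.97 (adjusted p 3.51e-08) and 1.52 (6.06e-09). VCAM1 was the 1 gene of these lists that rose with eNAMPT. Against control, VCAM1 rose by 1.53 with eNAMPT (edgeR adjusted p 7.25e-08) and by 1.49 with PDGF-BB (8.35e-08). Its average eNAMPT effect was 1.01 (adjusted p 6.65e-08). ITGA4, which as a pair with ITGB1 binds VCAM1, had an average PDGF-BB change of -0.18 (interval -0.48 to 0.12) and did not pass. ITGAL, ITGAM and ITGB2, the receptor subunits for ICAM1, had 2, 6 and 16 counts over the 20 libraries.

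Among 16 tested basement membrane partners of laminin (28 listed), COL7A1, the anchoring fibril collagen, rose by 0.43 (adjusted p 1.30e-05) and 0 fell, with a list median of 0.08. That is 1 of 16, and in the lists that follow 2 of 22 and 1 of 15 passed, which are few genes to read against the 3.96% of all genes that passed. Of 22 tested laminin receptors that are no integrins, with the enzymes that glycosylate dystroglycan (25 listed), 1 rose and 1 fell, and the median was -0.02. SDC4, or syndecan 4, a co-receptor of ITGA5 and ITGB1 for fibronectin, went from 252 ± 18.7 CPM in control to 390 ± 23.0 with PDGF-BB and 405 ± 27.9 with both, an average of 0.54 (adjusted p 1.35e-10). LARGE2, a dystroglycan glycosyltransferase, fell by 1.47 (adjusted p 0.0216), from 3.13 ± 1.51 CPM in control to 0.566 ± 0.580 with PDGF-BB and 2.01 ± 0.958 with both. Of 15 membrane partners of integrins, PLAUR, the urokinase receptor, rose by 0.64 (adjusted p 1.20e-11), with a list median of 0.09.

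In the comparisons against control, 1 marker of another cell type passed. It was KRT18, a keratin on the epithelial list, with both agents (log2 fold change 0.39, edgeR adjusted p 0.0154). With PDGF-BB alone against control KRT18 did not pass (0.24, adjusted p 0.361). Its average PDGF-BB log2 fold change was 0.36 (adjusted p 0.000331). The summed level of the 7 epithelial markers ran from 155 to 198 CPM in control and 136 to 182 CPM with eNAMPT, and from 175 to 237 CPM with PDGF-BB and 199.9 to 256 CPM with both. Of the 7, KRT18, KRT8 and KRT19 had means of at least 1 CPM, and EPCAM, CDH1, KRT5 and KRT14 stood at 0.531, 0.0930, 0.0700 and 0.0153 CPM. The summed fibroblast markers ran from 3228 to 4236 CPM in control and from 3032 to 4211 with PDGF-BB, and 0 of them passed in the comparisons against control. The part of these markers in the ITGA5 and ITGA2 results was not tested. In bulk libraries, fewer cells of a type and less RNA per cell cannot be told apart.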

How the data were processed

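The labels name RNA sequencing of 20 libraries on an Illumina NextSeq 500. The submitters' processing notes list GRCh38, DESeq2 1.18.1, featureCounts 1.6.4, STAR 2.6.1a and, for read quality, FastQC 0.11.7. The deposited table holds raw gene counts per library. Beside them it holds the authors' log2 fold changes and the authors' adjusted p-values. A deposited table of other counts, never lower than the first, served as an alternative. What separates the count tables is not given in the sources used here.

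Genes were filtered by filterByExpr in edgeR 4.0.16 (R 4.3.3), which kept 12111. One quasi-likelihood model with TMM scaling and a mean per group was fitted to all 20 libraries and gave 8 comparisons, and Benjamini-Hochberg adjustment ran over all genes tested, with 0.05 as the threshold. The SE is the fold change over the square root of F. The fit was also run on simulated data, and the outcome is not reported here. CPM are counts per 1e6 after TMM. All 58676 gene identifiers matched GENCODE 29.

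Members, gene lists and tests were chosen with earlier results of these data known. Values in every library are given for members that passed and for the 4 integrins and 3 laminins with the highest level. Up to 3 others with the smallest p were named in each comparison, and up to 4 genes that passed in each list. LIMS1 was named beyond that limit, LAMB3 was shown by group, and further members were named for their level or role. Some genes that enter the counts are not reported here by name or in the plots. Alternatives were DESeq2 1.42.0, RLE size factors, no filter on low counts, a mean of at least 10 counts, the replicate number as a term, only the groups compared, the other count table, spike-in scaling and leaving out each library.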

Additional observations from a re-analysis of the deposited data

Results flagged for a closer look

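In 56 groups of 5 libraries (14 members in 4 groups), 2 had a lowest or highest library far from the nearest other one. Chance gives about 1 in 20 such groups. ITGA3 in control replicate 4 was at 127.4 CPM, against 175.7 to 181.6 CPM in the other 4. ITGAV with both agents was at 59.3 CPM in replicate 2, against 51.6 to 52.6 CPM in the others.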

How the results depend on the processing

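In every setting ITGA5 and ITGA2 had positive fold changes in the 4 comparisons of PDGF-BB present against absent. DESeq2, RLE size factors, the other 2 filters and the other count table kept 2 members called in each. Spike-in scaling called 0 in all 4. It shifted the median of all genes to -0.14 or -0.15 in the comparisons of both agents with single agents or control, and gave ITGA5 0.39, 0.37, 0.34 and 0.37 and ITGA2 0.44, 0.31, 0.30 and 0.37 (PDGF-BB, both agents against control, both against eNAMPT, average). With only the groups compared, PDGF-BB against control had 1 member called, and ITGA5 did not pass (adjusted p 0.0683). Leaving out 1 library gave 0 to 2 members for PDGF-BB against control, 1 to 2 for both agents against control and against eNAMPT, and 2 to 3 on average. In the comparisons where neither gene passed, signs turned near 0. For ITGA2 these were 0.0152 with the other counts and 0.0143 with spike-ins for eNAMPT, -0.0011 and -0.1332 for both against PDGF-BB, -0.0163 and -0.1475 for the interaction, and -0.0594 with spike-ins for the average eNAMPT effect. For ITGA5 spike-ins gave -0.0232 for both against PDGF-BB and -0.047 for the interaction. Leaving out 1 library, ITGA2 ran from -0.0957 to 0.0893 (eNAMPT), -0.0242 to 0.0602 (both against PDGF-BB), -0.061 to 0.1251 (interaction) and -0.0332 to 0.0588 (average eNAMPT), and ITGA5 from -0.0508 to 0.048 (eNAMPT). The cause of these shifts was not tested. Over all genes, counts with spike-in scaling were 40, 50, 31 and 129 in the 4 PDGF-BB comparisons, 2 for both against PDGF-BB and 12 for the average eNAMPT effect. With no filter on low counts they were 14 for eNAMPT, 12 for both against PDGF-BB and 3 for the interaction, and with only the groups compared 11 for both against PDGF-BB.

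The same replicate numbers occur in each group, but the labels do not say that they mark a shared day or culture. In 30 pairs with the same number, correlations of deviations ran from 0.00138 to 0.176 (median 0.0901), and 12 were above 0.1. Pairs with different numbers ran from -0.114 to 0.114 (median -0.0257). Of 20 libraries, 12 correlated best with their own number. With the number as a replicate block, ITGA5 and ITGA2 stayed called in the 4 PDGF-BB comparisons, and 3 members were called for the average PDGF-BB effect. For PDGF-BB against control, the edgeR adjusted p with this block was 0.00366 for ITGA5 and 0.000578 for ITGA2. Genes called in all became 377, 510, 511 and 958 in the PDGF-BB comparisons, 21 for eNAMPT, 15 for both against PDGF-BB and 7 for the interaction. Members with under about 10 CPM rest on few counts per library, which limits what could be detected.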

Other observations

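ITGA8, an integrin subunit of smooth muscle and mesenchyme that binds nephronectin, varied more within groups than any other member with a mean of at least 5 CPM. Its within-group coefficient of variation had a median of 52.5%. In control it read 20.5, 11.9, 11.5, 4.81 and 6.82 CPM in replicates 1 to 5, and with PDGF-BB 9.74, 11.8, 10.3, 3.42 and 3.72 CPM. In all 4 groups replicate 1 was above replicate 5. Averaged over the groups, the 5 replicate numbers stood at 13.1, 13.7, 12.0, 5.74 and 5.18 CPM. ITGA10, the other collagen receptor subunit beside ITGA1, ITGA2 and ITGA11, had means of 3.44, 3.52, 0.923, 1.03 and 1.404 CPM by replicate number. In ITGA5 the same means ran from 90.8 to 105 CPM. In ITGA2 they were 90.8, 98.8, 94.9, 78.2 and 96.9 CPM for replicates 1 to 5. Replicate 4 was the lowest ITGA2 library in all 4 groups. These genes were picked after their values were seen, and no test was made.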
